A study of Mus musculus with 6 samples.

Results

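The 8 troponin genes of striated muscle were read by 11 probe sets, out of 12393 genes that the array names. A probe set is a set of short probes placed toward the 3' end of a transcript, and each one whose single annotated symbol was Tnni1, Tnni2, Tnni3, Tnnt1, Tnnt2, Tnnt3, Tnnc1 or Tnnc2 was taken, whatever its level. Tnni2 had 3 probe sets, Tnnt2 had 2, and each other gene had 1. RNA came from the superficial masseter, which closes the jaw, and from the tibialis anterior, which flexes the ankle, of normal female C57Bl/6 mice aged 6 months. No allele or agent is named for either group. There were 3 samples per muscle, numbered 1 to 3 in the titles, each on 1 array. No source used here says that a number marks 1 mouse, or that samples of 1 muscle are from different mice, so p-values measure the spread between these samples, which may be technical.

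Troponin sits on the thin filament of the sarcomere and makes contraction depend on calcium. Troponin C binds the calcium, troponin I holds back the actin and myosin interaction until it does, and troponin T ties the complex to tropomyosin. Each subunit is encoded by separate genes for slow-twitch and fast-twitch fibres, and the heart uses its own I and T genes while sharing the slow C gene. Mouse tibialis anterior and masseter are both known as predominantly fast muscles.

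The slow isoforms Tnni1, Tnnt1 and Tnnc1 and the cardiac isoform Tnnt2 had lower mean signals in the masseter. The recorded signals of the brightest probe sets of the fast isoforms were close to equal in the muscles. At signals so high, a difference can be recorded as too small. The mean signal of Tnnc1 was 103 in the masseter against 213 in the tibialis anterior, and that of the dimmest Tnni2 probe set went the other way, at 280 against 166. Tnnt2 was near or below the level at which signals were tested. No member passed the threshold of the test across the array. With limma's moderated test, 0 of the 8 probe sets that could be tested had an adjusted p under 0.05, against 1.18% of all 13576 probe sets tested. At an unadjusted p under 0.05 there were 2, Tnnc1 and the dimmest Tnni2 probe set, in opposite directions, where 13.1% of all probe sets tested were under it, and with SAM, the method the study's design text names, 0 passed. The remaining 3 probe sets, those of Tnnt2 and Tnni3, lay under the filter on low signals and are described without a test.

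Sequence upstream of 5 members is shown because these genes make up the slow and fast pair of troponin C and the slow and cardiac isoforms with lower mean signals in the masseter. Each window runs from 250 to 20 bases before the RefSeq start, 231 bases in build GRCm38.p6, at chr1:135799171-135799401 on the plus strand for Tnni1, chr7:4515995-4516225 on the minus strand for Tnnt1, chr14:31208062-31208292 on the plus strand for Tnnc1, chr1:135836084-135836314 on the plus strand for Tnnt2 and chr2:164779754-164779984 on the minus strand for Tnnc2. Where RefSeq gives a gene 2 starts, the one with the lower coordinate was used. Capitals mark the E-box CANNTG, the letters bound by myogenic bHLH factors, and the MCAT motif CATTCC, bound by TEAD factors, which reads GGAATG on the other strand.
Tnni1: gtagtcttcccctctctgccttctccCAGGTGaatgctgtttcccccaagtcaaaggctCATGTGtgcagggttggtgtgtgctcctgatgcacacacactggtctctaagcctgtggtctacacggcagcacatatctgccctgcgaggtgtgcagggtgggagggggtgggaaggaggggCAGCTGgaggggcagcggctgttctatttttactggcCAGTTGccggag
Tnnt1: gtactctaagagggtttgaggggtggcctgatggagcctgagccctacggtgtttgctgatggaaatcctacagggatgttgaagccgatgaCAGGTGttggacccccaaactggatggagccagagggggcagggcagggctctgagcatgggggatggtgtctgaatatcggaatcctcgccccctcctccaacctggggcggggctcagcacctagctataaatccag
Tnnc1: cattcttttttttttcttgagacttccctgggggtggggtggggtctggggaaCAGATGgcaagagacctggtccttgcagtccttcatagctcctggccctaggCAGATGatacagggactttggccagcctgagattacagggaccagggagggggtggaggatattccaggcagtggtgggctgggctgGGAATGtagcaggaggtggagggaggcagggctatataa
Tnnt2: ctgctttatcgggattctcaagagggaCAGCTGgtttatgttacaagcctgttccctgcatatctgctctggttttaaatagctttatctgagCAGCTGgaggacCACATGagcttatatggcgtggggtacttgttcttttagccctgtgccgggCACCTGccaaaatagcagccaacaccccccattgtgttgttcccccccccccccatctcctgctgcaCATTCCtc
Tnnc2: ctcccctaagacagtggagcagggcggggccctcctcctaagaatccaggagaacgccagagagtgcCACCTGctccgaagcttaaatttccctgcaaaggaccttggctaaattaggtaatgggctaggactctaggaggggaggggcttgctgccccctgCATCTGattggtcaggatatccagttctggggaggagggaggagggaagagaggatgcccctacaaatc

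Tnni1 and Tnnt2 each held 4 E-boxes, Tnnc1 and Tnnc2 held 2 and Tnnt1 held 1. At least 1 thus stood in each of these 5 windows, as in 63.6% of all 32851 RefSeq promoter windows of this length. How many of all windows held 2 or 4 was not counted. The MCAT motif stood once in Tnnc1, from base -58, and once in Tnnt2, from base -27, and not in the windows of Tnni1, Tnnt1 and Tnnc2. Of all windows, 11.8% held it. The MEF2 consensus, searched on both strands, matched 0 of these 5 windows and 2.76% of all windows. Matches did not overlap each other. A match is a string of letters, and its use was not measured here. Tnni2 and Tnnt3 are named only, and the window of Tnni3, which was under the filter level throughout, is not shown.

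The I and T genes lie in neighbouring pairs in the mouse genome (GRCm38.p6 gene order). Tnni1 and Tnnt2 share chromosome 1 with 1 gene, Lad1, between them. Tnnt1 and Tnni3 share chromosome 7 with 0 genes between them. Elsewhere on chromosome 7, Tnni2 and Tnnt3 have 1 gene, Lsp1, between them.

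On the whole array, the deposited signals had the same trimmed mean, 150.1, in every sample. The list of skeletal muscle markers, 7 of 8 measured and all 7 above the filter, summed to 44538 to 55392 in masseter samples and to 52362 to 53372 in tibialis samples, so both tissues read as skeletal muscle. Masseter 1 stood apart, with a summed signal of 52042 for 8 salivary gland markers against 7694 and 3262 in masseter 2 and 3 and 2487 to 5812 in the tibialis anterior. Of these markers Pip and Smr3a passed the threshold, higher in the masseter (limma adjusted p = 0.0113 and 0.0266), though their groups overlapped. The sums of smooth muscle markers (5 measured) were 1895 to 2191 and 1905 to 2972, those of adipocyte markers (3 measured) 4030 to 5748 and 2885 to 4934, and those of nerve and Schwann cell markers (3 measured) 937 to 1017 and 549 to 647 (masseter first, then tibialis anterior). Most of the adipocyte sum was Fabp4, which did not pass (log2 difference 0.27 ± 0.16, SE, limma adjusted p = 0.537). Adipoq, a dimmer adipocyte marker, was higher in every masseter array than in every tibialis array. It passed the threshold (1.26 ± 0.17, SE, limma adjusted p = 0.0167). For the Gapdh control, the ratio of 3' to 5' signal, a sign of RNA integrity, was 2.66 ± 0.23 in the masseter against 1.94 ± 0.11 in the tibialis anterior (SD, n = 3 each; exact permutation p = 0.1, which is the minimum for 3 against 3). The beta-actin control gave 2.96 ± 0.34 against 2.70 ± 0.11, with overlapping groups (SD, n = 3 each, exact permutation p = 0.3). The part of these differences in the troponin values was not tested.

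**Figure D1:**
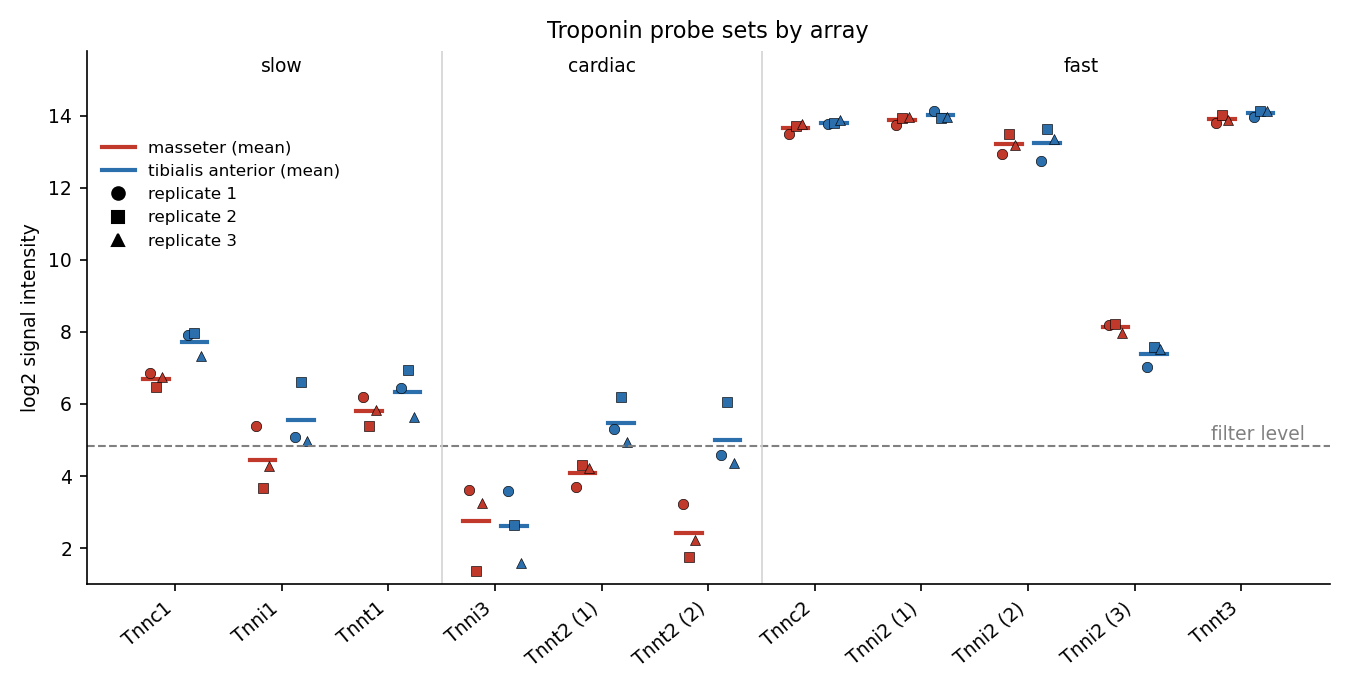
Signal intensity on a log2 scale (vertical axis) for each of the 11 troponin probe sets (horizontal axis, probe sets of 1 gene numbered from the brightest), with 1 point per array, the shape giving the replicate number and the bar the mean of the 3 arrays of a muscle. The dashed line is the filter level of 4.84, under which the means of Tnni3 and of both Tnnt2 probe sets over the 6 arrays fall.

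The calcium-binding subunit gave the most regular difference. Tnnc1, the troponin C of slow and cardiac muscle, had signals of 115.0, 88.5 and 107.6 in masseter 1, 2 and 3, against 240.5, 248.6 and 160.9 in tibialis anterior 1, 2 and 3. Every masseter array was below every tibialis array, and each of the 3 numbered pairs gave a negative difference. The log2 difference, masseter minus tibialis anterior, was -1.04 ± 0.22 (SE, n = 3 per muscle), with a 95% interval from -1.55 to -0.54, which corresponds to a signal 2.06-fold higher in the tibialis anterior. Limma gave an unadjusted p of 0.00129 and an adjusted p of 0.0749, rank 234 of the probe sets tested, so Tnnc1 did not pass. Its adjusted p ran from 0.0465 to 0.36 over 16 alternative settings, and the fit without replicate 3 was the setting in which it passed, at -1.28.

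Tnnc2, the troponin C of fast fibres, had signals of 11602, 13523 and 13872 in masseter 1, 2 and 3. In tibialis anterior 1, 2 and 3 they were 13942, 14110 and 14965. The groups did not overlap, yet the closest arrays of the muscles, masseter 3 and tibialis anterior 1, were nearly equal. The log2 difference was -0.15 ± 0.11 (SE; 95% interval -0.39 to 0.10; adjusted p = 0.636 by limma), and with quantile normalization it was 0.069. Masseter 1, the array with the high salivary signal, was the lowest of all for Tnnc2, Tnnt3 and the brightest Tnni2 probe set. In fits without it, and without the block, the differences of these were -0.07, -0.13 and -0.05.

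Tnni1, the slow skeletal inhibitory subunit, varied more among arrays of a muscle than any other tested member. Its signals were 42.3, 12.7 and 19.3 in masseter 1, 2 and 3, against 33.8, 97.6 and 31.4 in tibialis anterior 1, 2 and 3. The groups overlapped, with masseter 1 above tibialis anterior 1 and 3. The highest value, in tibialis anterior 2, was far from the other arrays of its muscle. Limma gave -1.11 ± 0.62 (SE; 95% interval -2.54 to 0.32; adjusted p = 0.519). The mean in the masseter lay under the filter level of 28.6, so the size of the difference is uncertain and no fold is given, and on the log2(signal + 16) scale it was -0.73. Without replicate 2 in both muscles the difference was -0.19, without tibialis anterior 2 it was -0.58 and without masseter 1 it was -1.58.

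Tnni2, the fast skeletal inhibitory subunit, was read by 3 probe sets that did not give the same picture. The brightest, designed from the reference transcript, had signals of 13730, 15730 and 16107 in masseter 1, 2 and 3, against 17750, 15695 and 16089 in tibialis anterior 1, 2 and 3, with overlapping groups. Its log2 difference was -0.12 ± 0.12 (SE; 95% interval -0.39 to 0.15; adjusted p = 0.74 by limma). The second, whose suffix marks probes that can match other transcripts, had signals of 7869, 11458 and 9400 in the masseter, against 6882, 12697 and 10541 in the tibialis anterior. It also overlapped (-0.04 ± 0.12, adjusted p = 0.928 by limma), and its sign turned in 6 of 16 alternatives.

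The dimmest Tnni2 probe set went the other way. Its signals were 293.4, 300.6 and 249.2 in masseter 1, 2 and 3, against 129.6, 190.3 and 185.2 in tibialis anterior 1, 2 and 3. Every masseter array was above every tibialis array, by a log2 difference of 0.76 ± 0.20 (SE; 95% interval 0.30 to 1.21; unadjusted p = 0.00479, adjusted p = 0.137 by limma). It was positive in all 3 numbered pairs and in all 16 alternatives, with adjusted p from 0.0992 to 0.364. It and the second probe set were designed from the same expressed sequence tag, and which transcript form it reads is not given in the sources used here.

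Tnni3, the troponin I of the adult heart, had signals of 12.2, 2.6 and 9.5 in masseter 1, 2 and 3, against 11.9, 6.3 and 3.0 in tibialis anterior 1, 2 and 3. All 6 values were under the filter level and the groups overlapped, so no difference was detectable at these signals and no fold is given. Its neighbour Tnnt1 was above the filter on every array.

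Tnnt1, the slow skeletal tropomyosin-binding subunit, had signals of 72.7, 41.9 and 56.8 in masseter 1, 2 and 3. In tibialis anterior 1, 2 and 3 they were 86.3, 122.9 and 49.7. The groups overlapped, because tibialis anterior 3 was below masseter 1 and 3. The log2 difference was -0.54 ± 0.35 (SE; 95% interval -1.34 to 0.26; adjusted p = 0.585 by limma), and without replicate 2 in both muscles it was -0.03. Without tibialis anterior 2 alone it was -0.23, without tibialis anterior 3 it was -0.89, without masseter 1 it was -0.73 and without masseter 2 it was -0.33. For Tnnt1, as for Tnni1, the size of the difference thus rested on which arrays were included.

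Tnnt3, the fast skeletal tropomyosin-binding subunit and the neighbour of Tnni2, had signals of 14213, 16498 and 15040 in masseter 1, 2 and 3, against 16052, 17852 and 18054 in tibialis anterior 1, 2 and 3. The groups overlapped at 1 array, masseter 2. The log2 difference was -0.18 ± 0.10 (SE; 95% interval -0.42 to 0.05; adjusted p = 0.518 by limma). With quantile normalization it was -0.04. The interval puts the tibialis anterior between 0.963-fold and 1.34-fold of the masseter.

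The brightest probe sets of the fast members read between 61.2% and 86.1% of the highest signal on their array. Near the top of the scale a difference can be understated, so the narrow intervals of Tnni2, Tnnt3 and Tnnc2 describe the recorded signals. The probe sets of Tnnt1, Tnnt3 and Tnni1 and 1 of Tnnt2 carry a suffix for transcripts of 1 gene that share probes, so splice forms of troponin T, which muscles are known to choose differently, are not separated.

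Tnnt2, the troponin T of the heart, which is also made in embryonic skeletal muscle, was low in both muscles. The brighter of its probe sets had signals of 13.0, 19.7 and 18.6 in masseter 1, 2 and 3, against 39.2, 73.6 and 30.9 in tibialis anterior 1, 2 and 3. The suffix of this probe set marks probes that can match other transcripts. The other had 9.4, 3.4 and 4.7 in the masseter, against 24.2, 66.3 and 20.7 in the tibialis anterior. In both probe sets every masseter array was below every tibialis array. Their mean over the 6 arrays fell short of the filter, at log2 levels of 4.78 and 3.71 against 4.84, so no test was made. For the brighter probe set the tibialis anterior was at least 1.56-fold higher against the filter level, and at least 1.22-fold without tibialis anterior 2. For the dimmer one 2 of 3 tibialis arrays were themselves under that level, so no fold is given. In the fit with no filter the log2 differences had adjusted p = 0.38 and 0.272 by limma, for the brighter and the dimmer probe set.

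Markers of cardiac muscle were examined beside Tnnt2. Of 8 measured markers, Myh6, Nppa, Nppb, Myl7 and Tbx20 had a mean over the 6 arrays under the filter level, and the list summed to 216 to 379 in masseter samples and to 297 to 418 in tibialis samples. The markers did not run one way. Myl4, the atrial and embryonic light chain, had 71.9, 93.7 and 110.0 in masseter 1, 2 and 3, against 181.6, 251.5 and 143.7 in tibialis anterior 1, 2 and 3, lower in the masseter without overlap (-1.05 ± 0.24, limma adjusted p = 0.102). Nppb, a natriuretic peptide of the heart, had 34.0, 32.9 and 37.5 in the masseter and 9.0, 5.7 and 7.0 in the tibialis anterior, higher in the masseter without overlap and at least 1.21-fold against the filter level. The cardiac transcription factor Nkx2-5 was at 1.18 ± 0.53 and the cardiac calcium release channel Ryr2 at 0.40 ± 0.43, neither past the threshold (limma adjusted p = 0.395 and 0.77). The part of cardiac markers in the Tnnt2 signals was not tested. In whole muscle, fewer fibres of a type and less RNA per fibre cannot be told apart.

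**Figure D2:**
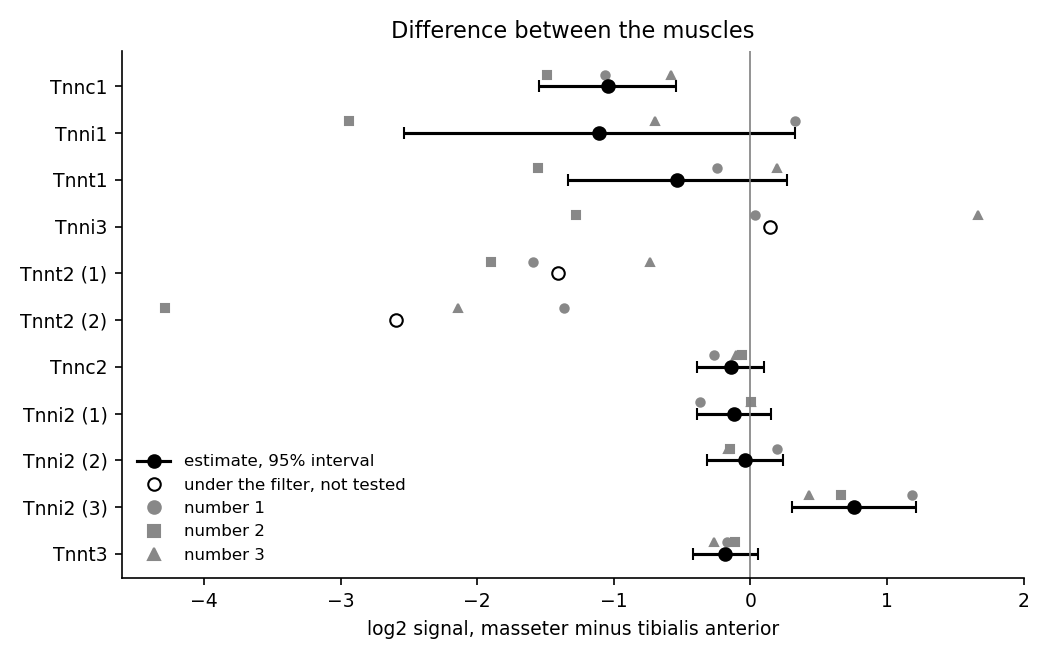
Log2 signal in the masseter minus that in the tibialis anterior (horizontal axis) for each troponin probe set (vertical axis), with black points for the limma estimate and its 95% interval, open points for probe sets under the filter, and grey symbols for the 3 numbered pairs. The interval of Tnnc1 runs from -1.55 to -0.54 and that of the dimmest Tnni2 probe set from 0.30 to 1.21, while the other 6 intervals include 0.

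Over all 11 probe sets, 4 had every masseter array below every tibialis array, those of Tnnc1 and Tnnc2 and both of Tnnt2, where 6.75% of all 22626 probe sets did. In the opposite direction there was 1, the dimmest Tnni2 probe set, where 7.69% of all did. The other 6 overlapped. The median log2 difference of the 8 tested members was -0.16, beside 0.02 over all probe sets tested.

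Tibialis anterior 2 was the highest of the 6 arrays in all 5 probe sets of the slow members and Tnnt2, while 13.9% of all tested probe sets were highest on that array. Masseter 2 was the lowest in 4 of these 5, the exception being the brighter Tnnt2 probe set, beside 12.6% of all tested probe sets. The 2 probe sets of Tnnt2 were under the filter, so these shares are over a set without them. Tnni3, the other cardiac member, was highest in masseter 1 and lowest in masseter 2. Where tibialis anterior 2 was highest and masseter 2 lowest, the pair numbered 2 had to hold the most negative difference. For those 4 probe sets this follows from the counts above and is no further result. That pair also held the most negative difference in the brighter Tnnt2 probe set. Log2 differences within pairs 1, 2 and 3 were -1.06, -1.49 and -0.58 for Tnnc1. They were 0.32, -2.94 and -0.70 for Tnni1 and -0.25, -1.55 and 0.19 for Tnnt1. Tnnc1 was negative in each pair, and the other slow members were not.

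Of 12 tested slow-fibre genes outside troponin, 2 were highest in tibialis anterior 2, a share close to that of all tested probe sets, and of 15 fast-fibre genes 2 were. The slow-fibre genes were the slow and ventricular light chains Myl2 and Myl3. Myl2 had signals of 253.3, 695.5 and 304.3 in tibialis anterior 1, 2 and 3, and Myl3 had 2422, 4269 and 2557. By contrast Myh7, the slow heavy chain, had 157.0, 107.4 and 53.9 there, and was highest in tibialis anterior 1.

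The ratio of the slow to the fast isoform was then formed within each array, for the brightest probe set of each gene. Its level compares different probe sets and is not read, but its difference between muscles shows whether the recorded signals of the isoforms differed unequally. The fast signals were among the highest on their arrays, so their differences may be recorded as too small. In that case the ratio would mostly follow the slow probe set, and whether the transcripts differed unequally cannot be told from it. For troponin C the log2 ratio of Tnnc1 over Tnnc2 was -6.66, -7.26 and -7.01 in masseter 1, 2 and 3, against -5.86, -5.83 and -6.54 in tibialis anterior 1, 2 and 3. Every masseter array was below every tibialis array, and the difference of the means was -0.90 (-6.97 ± 0.30 against -6.07 ± 0.40, SD, n = 3), a ratio 1.87-fold higher in the tibialis anterior. The two-sided exact permutation test gave p = 0.1, the minimum for 3 against 3, and 0.3 after adjustment over the 3 subunits.

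For troponin I the log2 ratio of Tnni1 over Tnni2 was -8.34, -10.27 and -9.70 in masseter 1, 2 and 3, against -9.04, -7.33 and -9.00 in tibialis anterior 1, 2 and 3. The groups overlapped, with a difference of -0.98 between means of -9.44 ± 0.99 and -8.46 ± 0.98 (SD, n = 3; exact permutation p = 0.3, adjusted 0.45). In the masseter it rests on Tnni1 signals whose mean is under the filter level, and on the log2(signal + 16) scale it was -0.61. The difference is about as large as the spread between arrays of 1 muscle. Without replicate 2 it was -0.0048, without tibialis anterior 2 it was -0.42 and without masseter 1 it was -1.53.

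For troponin T the log2 ratio of Tnnt1 over Tnnt3 was -7.61, -8.62 and -8.05 in masseter 1, 2 and 3, against -7.54, -7.18 and -8.50 in tibialis anterior 1, 2 and 3. The groups overlapped, and the difference of -0.35 was smaller than the SDs of 0.51 and 0.68 (n = 3; exact permutation p = 0.5, adjusted 0.5). Without replicate 2 it was 0.19. The differences of the I, T and C ratios thus had the same sign over all 6 arrays, and the one of troponin C exceeded the spread between arrays. Whether the subunits differ from each other in this was not tested.

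**Figure D3:**
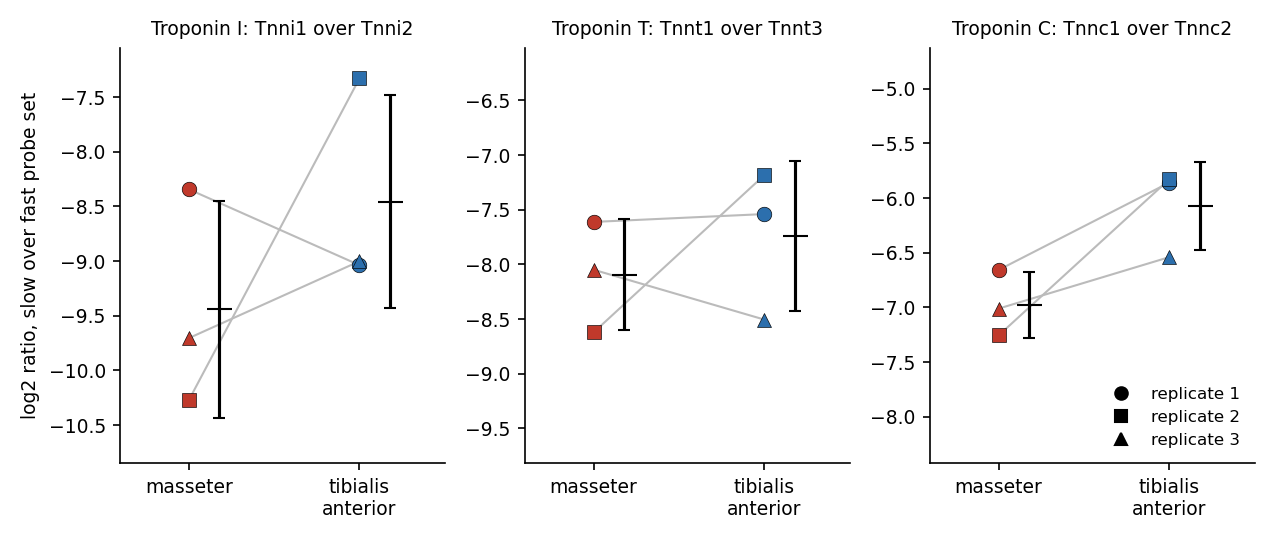
Log2 ratio of the slow over the fast probe set (vertical axis, the same span in each panel) in the masseter and the tibialis anterior, for troponin I, T and C from left to right, with symbols for replicate numbers, grey lines joining arrays of 1 number, and black bars for the mean ± SD of 3 arrays. The troponin C ratios separate, at -7.26 to -6.66 in the masseter and -6.54 to -5.83 in the tibialis anterior, and those of troponin I and T overlap.

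The slow troponins were set beside other genes of the fibre types. Of the 12 tested slow-fibre genes outside troponin, 3 passed, all lower in the masseter, beside 1.18% of all probe sets tested in either direction. Myl3, with a log2 difference of -5.91 ± 0.28 (limma adjusted p = 7.64e-05), and Myl2, at least 13.2-fold lower (adjusted p = 0.00114), were the farthest. Myh7 was next, at least 3.38-fold lower against the filter level without passing (adjusted p = 0.0671), and then Car3, a carbonic anhydrase, at -1.89 ± 0.11 (adjusted p = 0.000225). Without the intensity trend in eBayes, Myl2 and Car3 no longer passed (adjusted p = 0.062 and 0.0644), and that of Myl3 held in all 16 alternatives. The median of the list was -0.19, and the differences of Tnni1, Tnnc1 and Tnnt1 were -1.11, -1.04 and -0.54. In absolute size, 4 of the 12 genes (Myl3, Myl2, Myh7 and Car3) exceeded those of Tnni1 and Tnnc1, and 6 were smaller than that of Tnnt1, among them Tpm3, the slow tropomyosin (-0.13 ± 0.16). The other 2 were Myoz2, a Z-disc protein of slow fibres (-0.88 ± 0.26, adjusted p = 0.189), and Csrp3, a muscle LIM protein, which had the opposite sign (0.65 ± 0.46, adjusted p = 0.621). Atp2a2, the slow and cardiac calcium pump, had a difference of 0.23 ± 0.15 (adjusted p = 0.593) and Casq2, a calsequestrin, one of 0.00065 ± 0.18 (adjusted p = 0.999).

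The fast-fibre genes outside troponin had a median of -0.21 over 15 tested. Of these, 2 passed, both lower in the masseter, beside 1.18% of all probe sets tested in either direction. Myh4, the IIB heavy chain, was at -1.47 ± 0.14 (limma adjusted p = 0.00265), and Actn3, the alpha-actinin of fast fibres, at -0.88 ± 0.15 (adjusted p = 0.0342). Without the intensity trend in eBayes, Myh4 no longer passed (adjusted p = 0.155), nor did it with paired SAM (0.0603). Actn3 passed in 7 of 16 alternatives, with adjusted p up to 0.292. The fast troponins, at -0.12, -0.15 and -0.18 for Tnni2, Tnnc2 and Tnnt3, were near the fast light chains Myl1 (-0.13 ± 0.11) and Mylpf (0.0021 ± 0.11).

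**Figure D4:**
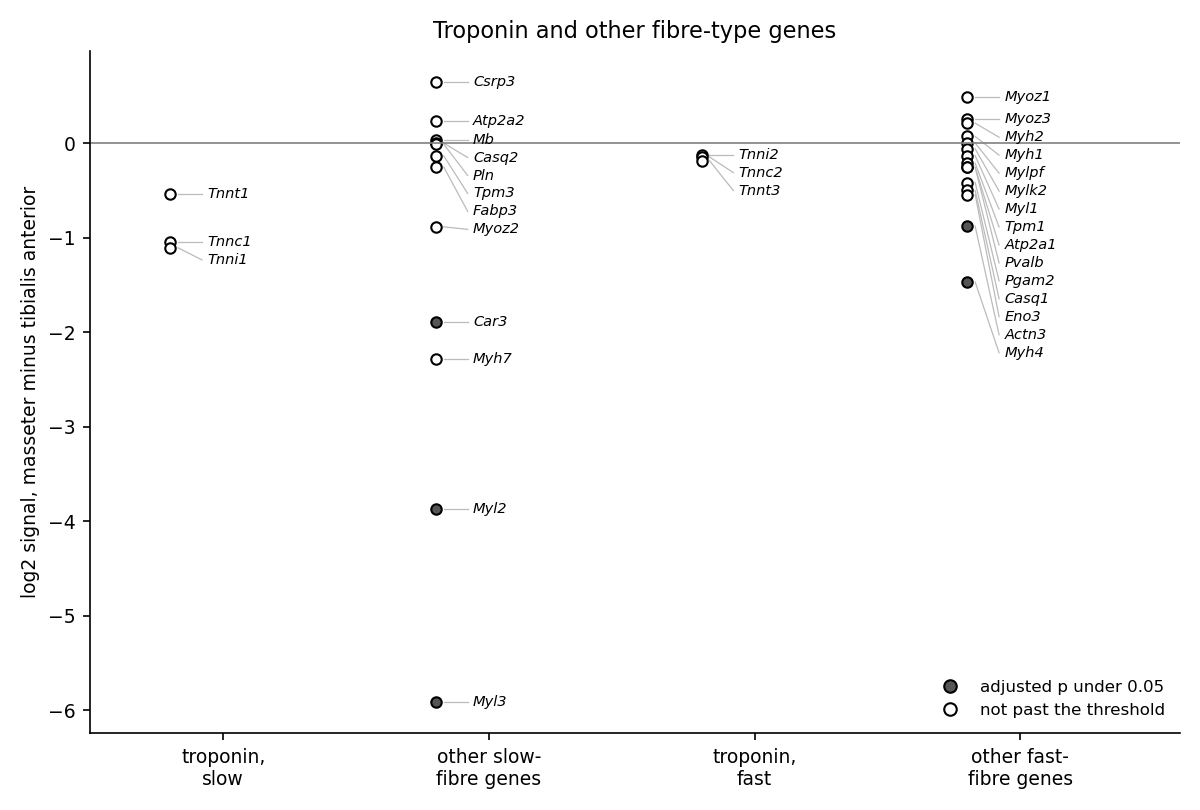
Log2 difference, masseter minus tibialis anterior (vertical axis), of the brightest probe set of each tested gene in 4 groups, with filled points for an adjusted p under 0.05 by limma. The slow troponins lie between -0.54 and -1.11 and the fast ones between -0.12 and -0.18, all unfilled, while Myl3 reaches -5.91 and Myh4 -1.47.

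Among the partners of troponin on the thin filament, 1 of 10 tested genes passed, beside 1.18% of all probe sets tested, and the median was -0.11. Actc1, the cardiac alpha-actin, was lower, with a log2 difference of -1.56 ± 0.21 (limma adjusted p = 0.0136), with signals of 248.1, 342.0 and 503.0 in masseter 1, 2 and 3, against 991.6, 1129.8 and 978.2 in tibialis anterior 1, 2 and 3. Like Tnnt2 and Tnnc1, it was highest in tibialis anterior 2 and its groups did not overlap, but its call held in 10 of 16 alternatives, with adjusted p up to 0.2. Lmod2, a leiomodin that nucleates actin filaments, had the next largest difference, 0.80 ± 0.17, and did not pass (adjusted p = 0.0758). Tpm1 and Tpm2, the tropomyosins on which troponin T sits, were at -0.21 ± 0.12 and 0.05 ± 0.11, neither past the threshold (adjusted p = 0.502 and 0.908).

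Of the factors known to act on the slow and fast programmes, 0 of 17 tested passed in either direction by limma or by paired SAM, 6 had an unadjusted p under 0.05 (13.1% of all probe sets tested did), and the median was 0.14. The largest differences were those of Rcan1, an inhibitor and target of calcineurin, at -0.78 ± 0.17 (limma adjusted p = 0.0886), and of Gtf2ird1, a factor known to bind an enhancer of the human slow troponin I gene, at 0.77 ± 0.52 (adjusted p = 0.603). Rcan1 had signals of 213.9, 227.1 and 217.9 in masseter 1, 2 and 3, against 393.6, 320.0 and 429.9 in tibialis anterior 1, 2 and 3, with no overlap. Tead1, a factor that binds the MCAT letters, was at 0.55 ± 0.43 (adjusted p = 0.661). Of the splicing factors of sarcomere transcripts, 0 of 7 tested passed by either method, 3 had an unadjusted p under 0.05, beside the same 13.1%, and the median was -0.00049. Srsf10 and Celf2 differed most, at 0.52 ± 0.19 and -0.44 ± 0.15 (adjusted p = 0.288 and 0.262), and Mbnl1, which acts on troponin T splicing, was at -0.39 ± 0.12 (adjusted p = 0.215).

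Genes with the array pattern most like that of each slow member were found among 8310 tested genes, by the root mean square difference of centred log2 signals over the 6 arrays. For Tnnc1 they were Tbx1, Irs1, Tmem140 and Tenm3, at 0.171, 0.176, 0.186 and 0.194. Irs1, the insulin receptor substrate, had 513.3, 356.7 and 483.1 in masseter 1, 2 and 3, against 1123.8, 805.0 and 688.4 in tibialis anterior 1, 2 and 3, and of the 4 only Tmem140 passed the threshold (limma adjusted p = 0.0395). It passed in 5 of 16 alternatives, which do not include the unblocked fit (adjusted p = 0.0551). For Tnnt1 they were Tafa5, Blzf1, Axin1 and Otub1, at 0.154 to 0.200, none of which passed. The nearest to Tnni1 were farther off, Pole, Cpne2, Tafa5 and Arhgef2 at 0.413 to 0.540. On the same measure the slow members were 0.346 (Tnnc1 and Tnnt1), 0.506 (Tnni1 and Tnnt1) and 0.60 (Tnni1 and Tnnc1) apart. Of the genes compared, 147 were closer to Tnnc1, and 98 closer to Tnnt1, than these are to each other. To Tnni1, 2 genes were closer than Tnnt1 was, and 11 were closer than Tnnc1 was. These distances are descriptions over 6 arrays that share the muscle difference.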

How the data were processed

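Per array, the authors deposited a linear intensity for each probe set, made with MAS5 and GCOS per the submitters' processing notes, without versions or settings. Detection calls were not used here. Precision is limited by the 6 arrays. Of 22690 probe sets, 64 controls were left out, 20380 had 1 symbol in the platform annotation, 691 several and 1555 none, and checking symbols by gene identifier changed 0. Signals were floored at 1 before taking log2. Probe sets were kept when their mean log2 signal reached the 40th percentile, 4.84 or a signal of 28.6, which left 13576. They were fitted with limma 3.58.1 in R 4.3.3 (lmFit, eBayes with trend), two-sided, with the replicate number as a fixed block since the study's design names paired comparisons. P-values were adjusted by Benjamini-Hochberg over the kept probe sets (threshold 0.05). Where the dimmer muscle's mean was under the filter level, the fold is against that level and written "at least". Group means are of log2 signal, given as linear signal. The brightest probe set stood for a gene in lists and ratios. Ratios were tested by exact permutation (scipy 1.17.1).

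The lists covered thin filament partners, slow-fibre and fast-fibre genes, regulators, splicing factors and markers of 6 tissues. Named genes were all members and the 4 nearest in pattern to each slow member. From each list other than the tissue markers, those past the threshold and the 2 with the largest difference were named. Chosen beyond that rule, after their values were seen, were the Tnni2 and Tnnt2 probe sets, Tpm1, Tpm2, Tpm3, Atp2a2, Casq2, Myl1, Mylpf and Myh7. Also so chosen were Myoz2, Csrp3, Tead1, Mbnl1 and each tissue marker named with its values, Myl4 among them. The members and lists were chosen with earlier results of these data known. The procedure was tested on simulated data. Promoter sequences are from RefSeq, with 6 of 8 members matched.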

Additional observations from a re-analysis of the deposited data

How the results depend on the processing

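The slow members and Tnnt3 kept a negative difference, and the dimmest Tnni2 probe set a positive one, in all alternatives that gave a value. The signs of near-zero differences turned for the brightest Tnni2 probe set (-0.18 to 0.0024 with arrays left out), for the second Tnni2 probe set (-0.29 to 0.15 with arrays left out, 0.017 with quantile normalization) and for Tnnc2 (0.069 with quantile normalization). The fit with no replicate block gave 138 probe sets past the threshold, 0 of them troponins, and an adjusted p of 0.0635 for Tnnc1. Deviations from the group means of arrays that share a number correlated at 0.04, 0.15 and 0.10 for numbers 1, 2 and 3. Between arrays of different numbers the correlations ran from -0.16 to 0.05. The values of numbers 2 and 3 lay above that range and that of number 1 within it. Deviations within a muscle cancel out, so positive values for shared numbers push the others down. That range is therefore no independent reference, and whether the numbers pair the samples cannot be told from it. With replicate block sign flips the ratio p were 0.5, 0.75 and 0.25 for troponin I, T and C, where 0.25 is the smallest possible.

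The count of 160 probe sets past the threshold (84 lower, 76 higher in the masseter) was 13 (10 and 3) with eBayes without trend and 65 (33 and 32) with paired SAM, and 45 to 173 (32 to 81 and 13 to 92) with arrays left out. Troponin calls ran from 0 to 1 with arrays left out, the 1 being Tnnc1 without replicate 3. Calls in the gene lists other than the tissue markers, 6 in all, were 1 with eBayes without trend, 3 with paired SAM and 4 to 8 with arrays left out. The ratio differences with arrays left out ran from -1.82 to -0.0048 (I), -0.76 to 0.19 (T) and -1.13 to -0.64 (C). Tnni1 and Tnnt1 gave no value with the filter at the 60th percentile. Low signal limits Tnni1, Tnni3 and Tnnt2, and the top of the scale limits the fast members.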
